A study of Homo sapiens with 12 samples.

Results

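HEK293 is an established human embryonic kidney line, and the 3 arrays described here hold the RNA of HEK293 cells that had received nuclear localized GFP in the vector pcDNA5/TO and nothing else. They were chosen by their titles as the GFP control arrays, 3 of the 12 arrays of the series, and were taken alone, with no comparison between groups. The other arrays hold HEK293 cells given full-length MED12, a PQL/Opa deletion of MED12 or a hairpin against MED12, and were not used here. All groups share the line, the lipid transfection 24 hours after plating, the harvest 48 hours later and a flow sort of 20 minutes that kept viable cells with GFP signal. The 3 GFP arrays are biological replicates per their titles, and whether they came from separate days is not given in the sources used here. The line is transformed and long in culture, the cells were transfected and sorted, and the profile is therefore that of a GFP-positive culture and not of untouched cells. RNA was amplified and labelled with biotin, and each array gave 1 log2 value for each of 22011 rows, where a row sums up the probes of a transcript cluster. Of these, 14432 rows carried 1 gene symbol, for 14232 genes. They were ranked by their mean over the 3 arrays, and the highest row stands for a gene with several.

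As background, HEK293 arose from an embryonic kidney culture exposed to sheared adenovirus DNA. The adenoviral E1A and E1B proteins that such cells make bind RB and p53, the brakes on S phase entry and on survival after damage. The line grows as adherent cells and is known for keratins of simple epithelia together with vimentin, and for neurofilament proteins, which has led to debate on whether its founder was a kidney cell or a neural or adrenal cell of the same culture. In laboratory use it is valued for its easy transfection, for strong protein production and for low levels of many receptors and channels, which makes it a common host for receptors brought in from outside.

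The deposited table has no detection call, so families that are used in sensory tissue, skin or mucosa served as a working floor. These were 220 olfactory receptors, 24 taste and vomeronasal receptors, 41 keratin-associated and cornified envelope genes and 10 defensins, 295 genes in 296 rows. A gene was counted as above the silent-family level when, in each of the 3 arrays, it exceeded the 95th percentile of those rows in that array. That level was 4.47 in GFP replicate 1, 3.86 in replicate 2 and 4.09 in replicate 3. By this rule 1507 of 14232 genes, 10.6%, were above it. The count rested on GFP replicate 1, where 11.5% of rows with 1 symbol were over the level, beside 30.1% and 23.7% in replicates 2 and 3. Without it 3237 genes, 22.7%, were above. GFP replicate 1 was also the narrowest array, with a standard deviation over all rows of 1.40 beside 1.58 and 1.60. Each row is set against rows of its own array, and evening out the spread by quantile normalization left 1514 rows above, beside 1519. With olfactory receptors alone as the floor, 3698 genes, 26%, were above. The counts of each list are therefore read against these shares, and counts without replicate 1 stand beside those with it. Being at or under this level does not show that a gene is silent, and a level is the signal of a row, which depends on its probes as well as on its transcript.

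**Figure D1:**
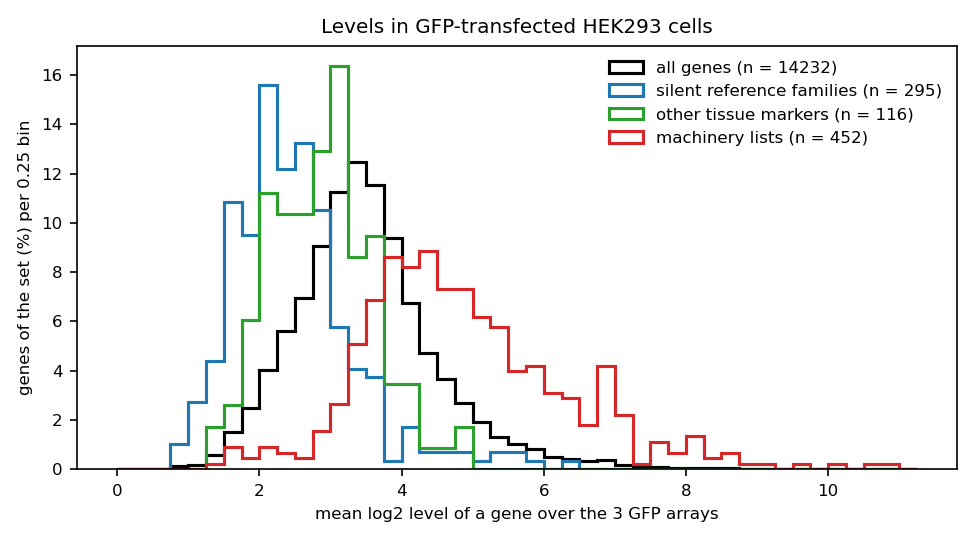
Mean log2 level over the 3 GFP arrays (x axis, bins of 0.25) of all 14232 genes, of the 295 silent reference genes, of 116 markers of other tissues and of 452 genes of the cell machinery lists, as the share of each set in percent (y axis). The silent families have a median of 2.38, other-tissue markers 2.91, all genes 3.42 and machinery genes 4.64, and the machinery lists reach furthest to the right.

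Promoter sequence varied with the level, so 7 promoters are printed that span the range. RPS24, CHMP2A, HSP90AA1 and SSB are the highest-ranked protein-coding genes with a listed promoter whose window holds, in turn, a CCAAT box, an ETS motif, a GC box and a TATA box. PTTG1 is the highest mitotic gene with several CCAAT boxes, ALB is the defining gene of hepatocytes, and OR6C1 is the lowest olfactory receptor with a TATA box, picked after its level was seen. Each run holds the 250 bases before the RefSeq start on GRCh38.p14, 5′ to 3′ on the strand of the gene. Capitals mark motifs on either strand: the TATA box, searched as TATAAA; the CCAAT box, searched by those letters; the GC box of SP1-like factors, searched as GGGCGG; and the ETS motif, searched as CCGGAAG. The CCAAT box can overlap its own reverse, and otherwise these letters do not contain each other.
RPS24: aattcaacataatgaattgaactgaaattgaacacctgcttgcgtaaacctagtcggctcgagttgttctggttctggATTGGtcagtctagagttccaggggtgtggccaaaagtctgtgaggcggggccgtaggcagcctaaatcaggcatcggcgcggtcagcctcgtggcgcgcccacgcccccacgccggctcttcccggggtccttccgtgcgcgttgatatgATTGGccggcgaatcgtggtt
CHMP2A: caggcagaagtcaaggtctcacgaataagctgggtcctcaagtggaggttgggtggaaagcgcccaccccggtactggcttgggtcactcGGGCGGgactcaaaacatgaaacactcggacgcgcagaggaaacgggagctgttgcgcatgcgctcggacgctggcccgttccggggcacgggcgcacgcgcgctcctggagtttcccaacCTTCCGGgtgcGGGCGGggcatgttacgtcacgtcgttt
HSP90AA1: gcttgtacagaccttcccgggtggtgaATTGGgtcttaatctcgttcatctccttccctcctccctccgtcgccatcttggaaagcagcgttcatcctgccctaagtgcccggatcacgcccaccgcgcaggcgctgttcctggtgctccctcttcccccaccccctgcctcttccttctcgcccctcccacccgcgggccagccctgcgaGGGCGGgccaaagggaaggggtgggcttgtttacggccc
SSB: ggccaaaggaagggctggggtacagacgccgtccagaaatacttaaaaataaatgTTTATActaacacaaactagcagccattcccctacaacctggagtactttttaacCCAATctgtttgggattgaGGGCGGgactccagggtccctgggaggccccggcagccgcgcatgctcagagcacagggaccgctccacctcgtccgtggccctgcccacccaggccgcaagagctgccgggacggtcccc
PTTG1: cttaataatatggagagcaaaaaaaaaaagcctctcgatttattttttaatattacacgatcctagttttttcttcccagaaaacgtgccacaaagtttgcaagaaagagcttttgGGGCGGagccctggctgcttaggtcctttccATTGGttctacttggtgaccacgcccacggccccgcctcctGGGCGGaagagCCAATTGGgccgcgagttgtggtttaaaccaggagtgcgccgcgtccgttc
ALB: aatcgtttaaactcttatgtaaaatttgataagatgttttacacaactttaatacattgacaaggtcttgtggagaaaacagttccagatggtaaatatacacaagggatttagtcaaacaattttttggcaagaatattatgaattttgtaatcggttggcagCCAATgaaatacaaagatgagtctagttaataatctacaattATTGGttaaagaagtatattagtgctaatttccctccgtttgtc
OR6C1: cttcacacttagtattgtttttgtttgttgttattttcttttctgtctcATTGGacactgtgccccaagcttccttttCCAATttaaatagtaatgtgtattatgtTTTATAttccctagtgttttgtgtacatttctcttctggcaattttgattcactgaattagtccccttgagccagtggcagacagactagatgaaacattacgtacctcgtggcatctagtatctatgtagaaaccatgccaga

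These windows lie at chr10:78033613-78033862 (plus strand) for RPS24, chr19:58555106-58555355 (minus) for CHMP2A, chr14:102139750-102139999 (minus) for HSP90AA1, chr2:169798621-169798870 (plus) for SSB, chr5:160421605-160421854 (plus) for PTTG1, chr4:73404037-73404286 (plus) for ALB and chr12:55314093-55314342 (plus) for OR6C1. The RPS24 window holds CCAAT boxes whose first bases are at -172 and -21 from the start, and the CHMP2A window an ETS motif at -39 with GC boxes at -160 and -28. The GC box of HSP90AA1 is at -39. The TATA boxes of SSB and OR6C1 are at -195 and -144. In PTTG1, CCAAT boxes stand at -103, -51 and -48, the last 2 as overlapping matches on opposite strands. The 300-base windows (250 bases before and 50 after the start) had a G and C content of 50.7% or more in the 5 genes with high levels, and of 33.3% in ALB and 35.7% in OR6C1.

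Genes with higher levels had promoters richer in CpG, the dinucleotide that is kept in unmethylated islands at the starts of widely used genes. Of 13733 protein-coding genes with a level, 11153 had a promoter in the RefSeq table, and these were cut into 10 bins by level. The median ratio of observed to expected CpG was 0.32 in the lowest bin and 0.89 in the highest, and the median G and C content 48.3% and 64.7%. A GC box stood in 29.1% of the windows of the lowest bin and 71.2% of the highest, beside 61.3% of the 11153. It stood in 45.0% of all 35116 promoters in the table, which also include further starts and genes without a level. The ETS motif stood in 5.20% and 24.6%, beside 14.6% of the 11153 and 10.3% of all. The TATA box ran the other way, with 20.1% in the lowest bin and 6.45% in the highest. It stood in 8.54% of the 11153 and 11.5% of all. The CCAAT box showed no such gradient, with 42.2% in the lowest bin, 31.7% in bin 6 and 40.6% in the highest. It stood in 36.5% of the 11153 and 34.6% of all. Over the 11153 genes, which share their arrays and base composition, Spearman's rho of the level with the CpG ratio was 0.369 and with G and C content 0.277. Among the 1288 genes above the silent-family level these were 0.13 and -0.11, so most of the gradient lay among lower levels. Base composition moved with the level in the same bins, and its part in the motif shares and in the array signal was not tested.

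**Figure D2:**
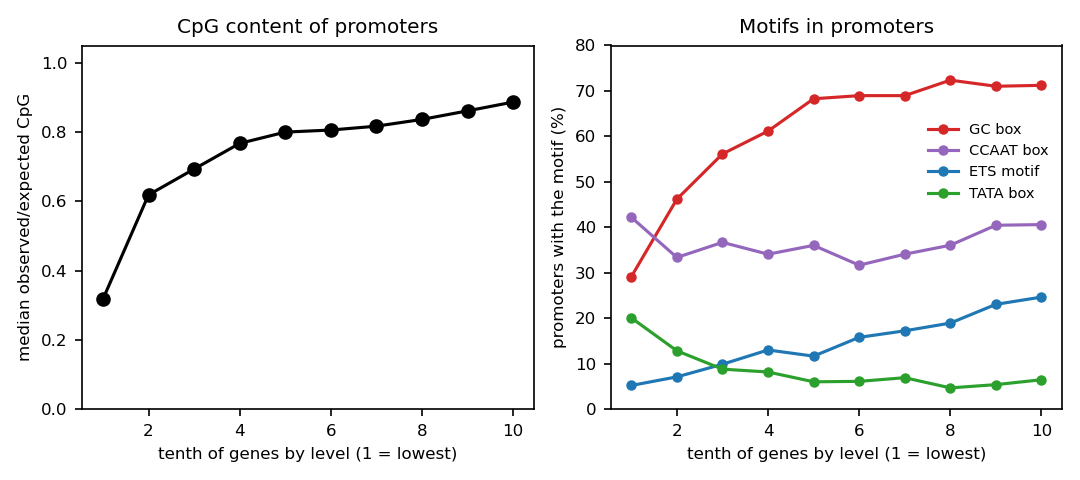
Left, median observed over expected CpG in the 300-base promoter windows of 11153 genes (y axis) by bin of level, 1 lowest to 10 highest (x axis). Right, percent of windows with a GC box, CCAAT box, ETS motif or TATA box on either strand by the same bins. The CpG ratio climbs from 0.32 to 0.89 and the GC box from 29.1% to 71.2%, while the TATA box drops from 20.1% to 6.45%.

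Windows of the silent families stood at the low end, with a median CpG ratio of 0.14, a GC box in 1.71% and a TATA box in 34.6% of 234 windows. The CCAAT box, which the factor NF-Y binds, stood in 80.6% of the 36 windows of G2 and mitosis genes, beside 36.5% of the 11153. Genes of mitochondrial ribosomal proteins had the ETS motif in 39.7% of 58 windows and cytosolic ribosomal protein genes in 33.3% of 24, beside 14.6% of the 11153. The TATA box stood in 3.45% and 0% of these windows, in 12.8% of 47 windows of oxidative phosphorylation genes and 12.5% of 40 of splicing genes, beside 8.54% of the 11153. A match is a string of letters and not a bound site.

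The highest levels belonged to mitochondrial transcripts, a ribosomal protein, nuclear RNA and chaperones. ND5, a complex I subunit encoded in the mitochondrial genome, was at 10.71, 10.91 and 11.13 in GFP replicates 1, 2 and 3, a mean of 10.91 ± 0.21 (SD, n = 3, as for all means here). ND6, from the other strand of that genome, was at 10.71, 10.61 and 10.47. These are the only mitochondrially encoded genes of 26 listed that had a row with 1 symbol, and they overlapped each other in range. RPS24, a protein of the small ribosomal subunit, followed at 10.23, 10.25 and 10.11. MALAT1, a long noncoding RNA of nuclear speckles, was at 9.87, 10.14 and 10.22. MALAT1 was the only noncoding RNA among the 25 highest genes.

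HSP90AA1, the inducible cytosolic HSP90 chaperone, was the highest of the chaperones at 9.69, 9.55 and 9.66. SON, a speckle protein needed for splicing, was at 9.29, 9.69 and 9.62, and PA2G4, a growth-linked protein that associates with ribosomes, at 9.21, 9.36 and 9.40. HNRNPA2B1, an RNA-binding protein of nuclear pre-mRNA, was at 9.05, 9.22 and 9.07. Replicate 1 was the lowest array for 3 of these 4 genes, all but HSP90AA1, and the ranges of SON and HSP90AA1, and of PA2G4 and HNRNPA2B1, overlapped. CHMP2A, a subunit of the ESCRT-III membrane-cutting complex, was at 8.73, 9.20 and 9.07. SEM1, a small proteasome lid protein, had a mean of 8.88 ± 0.22 and HSPA8, the constitutive HSP70, of 8.75 ± 0.18. CANX, a chaperone of the endoplasmic reticulum, SET, a histone chaperone, SSB, the La protein that binds new polymerase III transcripts, and UBB, a polyubiquitin gene, followed between 8.63 and 8.65. The remaining 10 of the 25 lay between 8.12 and 8.54: COX6B1, H2AZ1, THYN1, COX7A2, POLR2F, CEBPZ, TUBA1B, SRSF9, MYL6 and HNRNPH1.

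**Figure D3:**
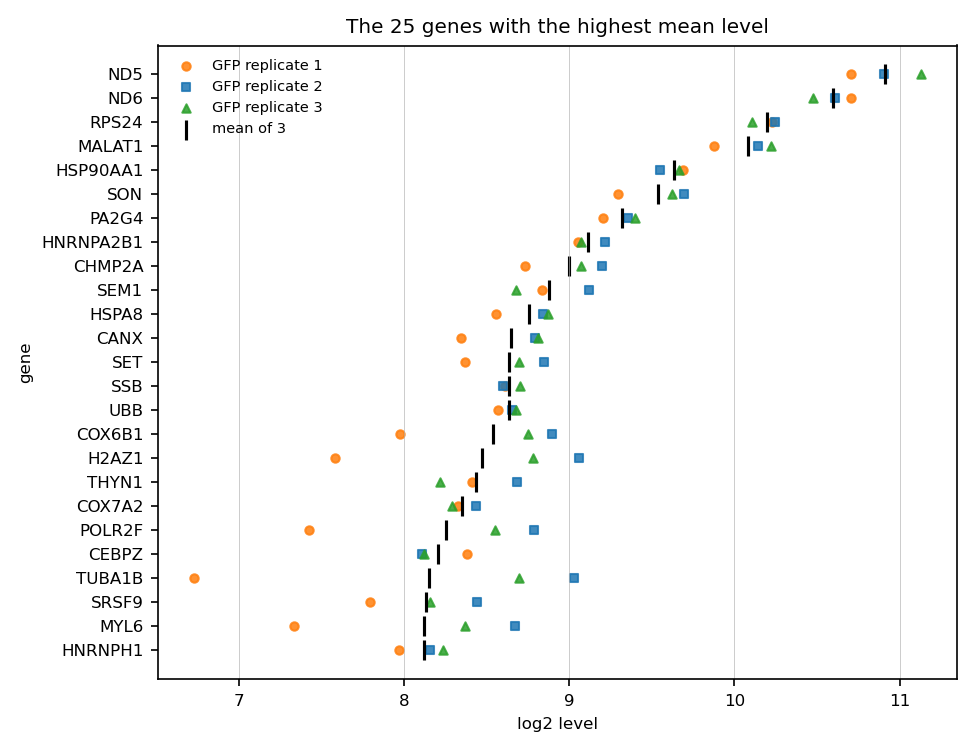
Log2 level of the 25 genes with the highest mean (y axis, ordered by mean) in GFP replicates 1, 2 and 3 (symbols), with the mean of the 3 as a bar. Means run from 8.12 to 10.91, and replicate 1 lies far below the other arrays for TUBA1B, H2AZ1, POLR2F and MYL6.

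Neighbours in this order mostly did not differ beyond their spread. TUBA1B, the main alpha tubulin, was at 6.73 in replicate 1 and at 9.02 and 8.70 in the others, and H2AZ1, a histone variant, was at 7.58, 9.06 and 8.78. Their place in the order rests on which arrays are averaged: leaving out 1 array in turn kept 22 to 24 of the 25 genes. Rows with 1 symbol hold few of the strongest signals of the table. Of its 100 highest rows 4 had 1 symbol, 3 had several and 93 had none, and these last cannot be named here.

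Machinery that every growing cell needs stood well above the background share. Over 14 such lists 208 of 452 measured genes, 46.0%, were above the silent-family level, beside 10.6% of all genes. Without replicate 1 there were 315, 69.7% beside 22.7%. Of the 100 highest genes 46 were in 1 of these lists, 11 of them splicing and hnRNP genes, 6 oxidative phosphorylation, 6 nucleolar or chromatin, 5 ribosomal, 5 chaperones and 4 cytoskeleton. The share varied widely between the lists. Each list count below stands against 10.6% of all genes, and each bracketed count, without replicate 1, against 22.7%.

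Splicing and hnRNP genes, which shape pre-mRNA, were above in 31 of 43 (39 without replicate 1), with a median level of 5.85. After HNRNPA2B1 came SRSF9, an SR protein, at 8.13 ± 0.32, HNRNPH1 at 8.12 ± 0.14 and HNRNPH3 at 7.95 ± 0.09, which bind G-rich runs. The lowest were U2AF2, which binds the polypyrimidine tract, at 3.51 ± 0.22, and YBX1, an abundant RNA-packing protein, at 2.03 ± 0.89.

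Chaperones were above in 16 of 20 (17), median 5.90. The chaperonin subunits CCT5 and CCT2 were at 7.83 ± 0.38 and 7.24 ± 0.62. The lowest were PPIA, the cyclophilin that folds prolyl bonds, at 2.81 ± 0.59 and HSPE1, the small partner of the mitochondrial chaperonin HSPD1, at 2.71 ± 0.71. Actin and tubulin genes were above in 16 of 23 (22), with MYL6, a myosin light chain, at 8.12 ± 0.70, ACTB, beta actin, at 7.66 ± 0.50 and TMSB10, an actin-binding thymosin, at 6.90 ± 0.29. CAPZA2, a capping subunit, at 4.05 ± 0.14 and TUBG1, gamma tubulin, at 3.63 ± 1.03 were lowest.

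Nucleolar and chromatin genes were above in 20 of 32 (23). SET was at 8.64 ± 0.25, H2AZ1 at 8.47 ± 0.79, FBL, the rRNA methylase fibrillarin, at 7.50 ± 0.61 and ANP32B, a histone chaperone, at 7.16 ± 0.40. At the other end HMGN2, a nucleosome binder, was at 1.72 ± 0.87 and NPM1, the main nucleolar chaperone, at 1.30 ± 0.51. NPM1 read 1.61, 0.71 and 1.59 in the 3 arrays, below the silent-family median of 2.58, 2.28 and 2.26 in each.

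Energy genes were split. Nuclear-encoded oxidative phosphorylation genes were above in 28 of 55 (42), with the cytochrome oxidase subunits COX6B1 at 8.54 ± 0.50 and COX7A2 at 8.35 ± 0.07, NDUFA1 of complex I at 7.74 ± 0.05 and COX5A at 7.01 ± 0.29. ATP5PB, of the ATP synthase stalk, at 1.61 ± 0.17 and NDUFB3 of complex I at 1.59 ± 0.55 were lowest. Glycolytic enzymes were above in 6 of 16 (7). LDHB and LDHA, the lactate dehydrogenase subunits, were at 8.01 ± 0.37 and 7.22 ± 0.20, PGK1 at 6.01 ± 0.36 and ENO1 at 5.88 ± 0.54, whereas ALDOC, the brain aldolase, was at 2.98 ± 0.17 and TPI1, triose phosphate isomerase, at 1.97 ± 0.51.

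The protein synthesis lists were also split. Cytosolic ribosomal proteins had a row with 1 symbol for 26 of 80 genes, and 13 of the 26 were above (19). RPS25 was at 8.03 ± 0.80, RPL11, which also binds MDM2, at 7.05 ± 0.89 and RPS6, the phosphorylated protein of the small subunit, at 7.00 ± 0.49, whereas RPS29 was at 3.02 ± 0.29 and RPS19 at 2.24 ± 0.69. Translation factors were above in 13 of 28 (23), from EIF2S3 at 7.44 ± 0.53, EIF5B at 6.89 ± 0.31, EIF3K at 6.41 ± 0.59 and EIF2S1 at 6.34 ± 0.52 down to EEF1D at 3.10 ± 0.05 and EIF2S2 at 1.70 ± 0.54. EIF2S1, EIF2S2 and EIF2S3 are the subunits of 1 complex, eIF2, which brings the initiator tRNA, and their rows spanned more than 5 log2 units.

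Mitochondrial ribosomal proteins were above in 20 of 65 (31), with MRPL51 (7.46, 8.28 and 8.26), MRPL33 at 6.12 ± 0.08, MRPS10 at 5.63 ± 0.40 and MRPS18B at 5.60 ± 0.39 highest and MRPL52 at 2.78 ± 0.39 and MRPL49 at 2.74 ± 0.34 lowest. Proteasome subunits were above in 12 of 27 (21) and none of them had a mean under 3.62. PSMA4 at 6.80 ± 0.65, PSMA3 at 6.71 ± 0.48, PSMB4 at 6.63 ± 0.64 and PSMB7 at 6.43 ± 0.52, all of the core particle, were highest within this list, which does not hold SEM1, and PSMD5, an assembly chaperone, at 3.70 ± 0.32 and PSMB6, a catalytic subunit, at 3.62 ± 1.01 were lowest.

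**Figure D4:**
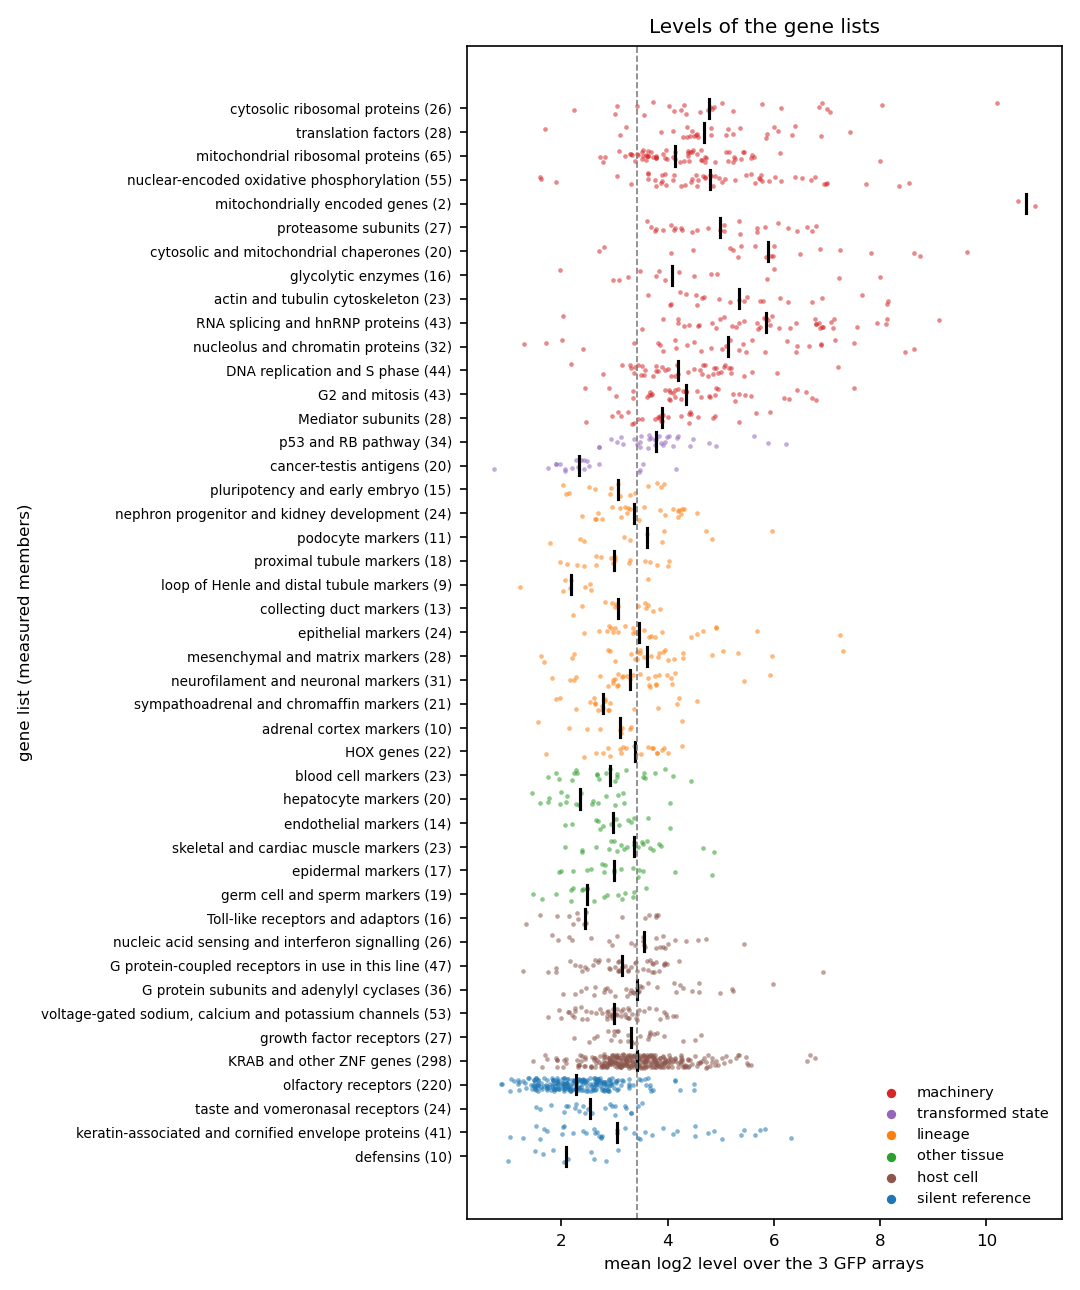
Mean log2 level over the 3 GFP arrays (x axis) of every measured member (points) of 45 gene lists (y axis, number measured in brackets), with the list median as a bar, coloured by the kind of list; the dashed line is the median of all genes, 3.42. Machinery lists reach far to the right, and several of them, such as the nucleolar and oxidative phosphorylation lists, also have members under 2; most lineage, tissue and host cell lists centre at or below the line.

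Rows of the same gene could differ widely. Of 197 genes with several rows, the rows of 62, 31.5%, differed by over 1 log2 unit, with a median gap of 0.65. The widest was COX7A2, with 1 row at 8.35 and another at 1.30. RPF2, a ribosome assembly factor, had a row at 7.89 and another at 2.15, 1.28 and 1.09 in the 3 arrays, and NEDD8, a ubiquitin-like modifier, rows at 7.42 and 3.14. Whether the low rows of NPM1, YBX1, TPI1 or EIF2S2 measure the main transcript of these genes was not tested.

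Cell cycle genes were above the level more often than genes at large. Of the DNA replication and S phase genes 13 of 44 were above (27 without replicate 1). RRM2, the S phase subunit of ribonucleotide reductase, was at 6.65, 7.61 and 7.36, TYMS, thymidylate synthase, at 6.06 ± 0.53, MCM6, of the replicative helicase, at 5.60 ± 0.33 and PRIM1, primase, at 5.44 ± 0.27. The lowest were UHRF1, which guides maintenance methylation, at 2.79 ± 0.13 and POLE2, of polymerase epsilon, at 2.18 ± 0.27.

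Of the G2 and mitosis genes 13 of 43 were above (30). PTTG1, the securin that holds back separase, was at 7.02, 7.52 and 7.99, BIRC5, survivin, at 6.80 ± 0.71, TOP2A, topoisomerase II alpha, at 6.71 ± 0.40 and PRC1, of the spindle midzone, at 6.60 ± 0.49. KIF2C, a microtubule depolymerase, at 2.89 ± 0.11 and CDK1, the mitotic kinase, at 2.44 ± 0.29 were lowest. The shares of 29.5% and 30.2% compare with 10.6% of all genes, and the medians of 4.19 and 4.34 with 3.42.

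In the p53 and RB list 4 of 34 genes were above (12 without replicate 1). MDM2, the p53 ubiquitin ligase and itself a p53 target, was at 5.96, 6.25 and 6.49, GADD45A, a stress target, at 5.36, 6.20 and 6.12, and PMAIP1, the BH3-only protein NOXA, at 5.14, 5.65 and 6.07. CDKN1A, the p21 inhibitor, was at 4.52, 4.50 and 4.23, close to the level in replicates 1 and 3. RBL1, the RB relative p107, was at 4.91 ± 0.48 and exceeded the level in replicates 2 and 3 but not in replicate 1. The share, 11.8%, is near the 10.6% of all genes, but this depended on the setting. Without replicate 1 it was 35.3% beside 22.7%, and with olfactory receptors alone as the floor 35.3% beside 26%. No cancer-testis antigen of 20 was above with or without replicate 1, and the highest of them was MAGEA8 at 4.16 ± 0.32.

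Mediator links transcription factors to RNA polymerase II. Of 28 listed genes of its subunits and their paralogues 5 were above, 17.9% beside 10.6% of all genes. Without replicate 1 there were 12, 42.9% beside 22.7%, and on the olfactory floor 11, 39.3% beside 26%. CCNC, the cyclin of the kinase module, was highest at 5.64, 5.98 and 6.17, then MED13, which joins that module to the core, at 5.66 ± 0.66, MED14, the backbone, at 5.34 ± 0.49 and MED31 at 4.89 ± 0.07. MED12, which activates the kinase of the module, was at 4.03, 4.56 and 4.66, a mean of 4.41 ± 0.34 at the 85.2 percentile of the rows with 1 symbol. It was over the silent-family level in replicates 2 and 3, under it in replicate 1, and over the olfactory floor in all 3. MED12L, its paralogue, was at 2.95 ± 0.16 and MED11 lowest at 2.47 ± 0.52.

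An epithelial and a mesenchymal intermediate filament gene, KRT8 and VIM, were both above the silent-family level. KRT8 was the only keratin of the epithelial list above it, and its partner KRT18 was not. KRT8, a keratin of simple epithelia, was at 7.17, 7.37 and 7.22, and VIM, vimentin, at 5.45, 5.99 and 6.45. FN1, fibronectin, was at 7.54, 7.14 and 7.19, and with KRT8 it is the only gene of the 12 lineage lists among the 100 highest. FN1 was highest in replicate 1, unlike most genes above the silent-family level, and KRT8 had an SD of 0.10.

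Of 24 epithelial markers 5 were above (7 without replicate 1): KRT8, DSP, DSG2, EPCAM and CLDN3. DSP and DSG2 build desmosomes and were at 5.69 ± 0.21 and 4.91 ± 0.38. EPCAM, an epithelial adhesion protein, was at 4.66, 4.74 and 4.61, and CLDN3, a tight junction claudin, at 5.27, 4.26 and 4.13. TJP1, the tight junction scaffold ZO-1, at 4.92 ± 0.48 missed the level in replicate 1 alone. CDH1, the epithelial cadherin, was at 2.70, 2.83 and 2.59, under the median gene, and KRT18, the keratin that pairs with KRT8, read 2.87, 4.38 and 3.40.

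Of 28 mesenchymal and matrix markers 5 were above (8): FN1, VIM, CDH2, LAMC1 and ZEB1. CDH2, the neural cadherin, was at 4.56, 5.49 and 5.90, LAMC1, a laminin chain of basement membranes, at 5.04 ± 0.18 and ZEB1, a repressor of CDH1, at 4.84 ± 0.35. In each array CDH2 was higher than CDH1, although rows of different genes do not share a scale. The shares above, 20.8% of the epithelial and 17.9% of the mesenchymal list, were over the 10.6% of all genes. Without replicate 1 these shares were 29.2% and 28.6% beside 22.7%. On the olfactory floor they were 29.2% and 35.7% beside 26%, so the excess is a few genes and varied with the floor. The medians of 3.47 and 3.62 were near that of all genes.

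Of the neuronal list 2 of 31 genes were above, 6.45% beside 10.6% of all genes (6 without replicate 1, 19.4% beside 22.7%). They were UCHL1, a neuronal ubiquitin hydrolase, at 5.53, 5.92 and 6.32, and NEFM, the medium neurofilament chain, at 5.26, 5.53 and 5.51. Of the other neurofilament genes, NEFL was at 3.77 ± 0.19, NEFH at 2.73 ± 0.14 and INA, internexin, at 3.67, 3.97 and 4.35. NCAM1, a neural adhesion molecule, at 4.14 ± 0.23 and INSM1, a neuroendocrine factor, at 4.09 ± 0.22 passed the level in replicates 2 and 3 only.

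**Figure D5:**
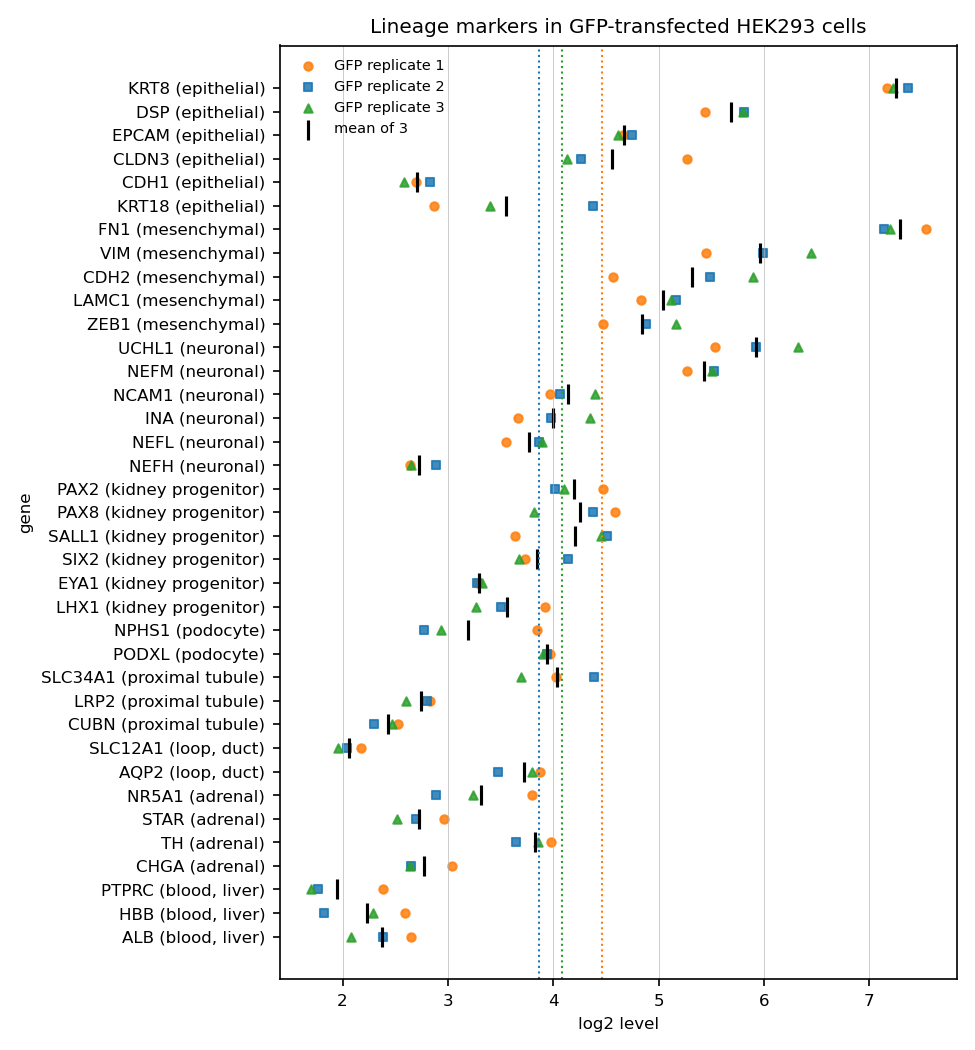
Log2 level (x axis) of markers of epithelium, mesenchyme, neurons, kidney, adrenal, blood and liver (y axis) in GFP replicates 1, 2 and 3 (symbols), with the mean as a bar; dotted lines in matching colours are the silent-family level of each array, 4.47, 3.86 and 4.09. KRT8, FN1, VIM, UCHL1 and NEFM lie to the right of all 3 lines, PAX2 on them, and segment-specific kidney, adrenal, blood and liver markers mostly to the left.

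Kidney markers were mostly under the silent-family level. The 24 nephron progenitor genes had a median of 3.38, near that of all genes, and 4.17% were above beside 10.6% of all genes (20.8% beside 22.7% without replicate 1). Of these 24 only PAX2, an early regulator of the nephric lineage, was above with all arrays, at 4.47, 4.02 and 4.10. Its mean of 4.20 is the lowest of any gene counted as above, and ZRSR2, a splicing factor, at 4.40, 5.91 and 6.55, has the highest mean of those not above, 5.62. Without replicate 1 GATA3, TFAP2A, HOXD11 and SALL1 joined PAX2. GATA3, a factor of the nephric duct and of sympathetic cells, was the highest of the list at 4.34, 4.73 and 4.59, TFAP2A was at 4.31 ± 0.21, HOXD11, of the metanephric HOX group, at 4.26 ± 0.17 and SALL1 at 4.20 ± 0.49. PAX8 was at 4.26 ± 0.40, SIX2, which keeps nephron progenitors undifferentiated, at 3.85 ± 0.25 and EYA1, its partner, at 3.29 ± 0.02.

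Podocyte genes were above in 3 of 11, 27.3% beside 10.6% of all genes (27.3% beside 22.7% without replicate 1). These were CD2AP at 5.97 ± 0.31, ACTN4 at 4.84 ± 0.24 and FOXC2 at 4.71 ± 0.13. CD2AP, an adaptor, and ACTN4, an actin crosslinker, are used in many cells. The defining slit diaphragm gene NPHS1, nephrin, was at 3.19 ± 0.58, PODXL at 3.94 ± 0.04 and SYNPO at 3.62 ± 0.29. None of 18 proximal tubule, 9 loop and distal tubule or 13 collecting duct markers was above, with or without replicate 1. The phosphate carrier SLC34A1 was at 4.03 ± 0.35, the urate carrier SLC22A12 at 4.01 ± 0.09, the endocytic receptors LRP2 and CUBN at 2.74 ± 0.13 and 2.43 ± 0.12, SLC12A1 of the loop at 2.06 ± 0.11 and AQP2 of the collecting duct at 3.72 ± 0.21. Few of the listed kidney genes were over this floor, but lists this short would hold few at the share of all genes. With olfactory receptors alone as the floor, 29.2% of the nephron progenitor and 36.4% of the podocyte genes were above, beside 26% of all genes. On that floor the shares were 16.7% for proximal tubule, 0% for loop and distal tubule and 7.69% for collecting duct markers.

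No sympathoadrenal gene of 21 and no adrenal cortex gene of 10 was above, beside 10.6% of all genes. Without replicate 1 there were 3 and 1, 14.3% and 10% beside 22.7%. Lists this short would hold few genes above at the share of all genes. TH, the first step to catecholamines, was at 3.83 ± 0.17, PHOX2A at 2.91 ± 0.15 and HAND1 at 2.89 ± 0.17, while GATA2 at 4.21 ± 0.07 and CHRNA3, a ganglionic receptor subunit, at 4.18 ± 0.26 passed in replicates 2 and 3. In the cortex list FDX1, a ferredoxin of steroid synthesis, was highest at 4.27 ± 0.37, NR5A1, the steroidogenic master factor, was at 3.31 ± 0.46, STAR at 2.72 ± 0.23 and CYP11A1 at 2.48 ± 0.17. Of 22 HOX genes none was above (2 without replicate 1, 9.09% beside 22.7%). The highest were HOXD11, HOXB9 at 4.01 ± 0.14, HOXD10 at 3.93 ± 0.04 and HOXD9 at 3.90 ± 0.22. Of 15 pluripotency genes none was above with or without replicate 1, with LIN28B at 3.93 ± 0.32, UTF1 at 3.87 ± 0.14, KLF4 at 3.80 ± 0.18 and TERT at 3.63 ± 0.27 highest. In a bulk sample, fewer cells of a type and less RNA per cell cannot be told apart.

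Markers of other tissues were the lowest of the named classes apart from the silent families. Of 116 genes 3 were above, 2.59% beside 10.6% of all genes, with a median of 2.91. Without replicate 1 there were 6, 5.17% beside 22.7%. CD68, a lysosomal protein best known from macrophages, was at 4.53, 4.25 and 4.56, whereas the blood-defining PTPRC was at 1.95 ± 0.38 and CD3D and CD3E at 2.27 ± 0.27 and 2.30 ± 0.63. The muscle list gave NKX2-5, a heart factor, at 5.06, 4.71 and 4.86 and MYOG, myogenin, at 4.83, 4.61 and 4.59, while the structural muscle genes DES and ACTA1 were at 3.83 ± 0.20 and 3.73 ± 0.21. NKX2-5 and MYOG were both highest in replicate 1. No hepatocyte gene of 20 was above (1), with ALB, serum albumin, at 2.65, 2.39 and 2.08 and APOA1 highest at 4.04 ± 0.17. None of 14 endothelial and 19 germ cell genes was above, and of 17 epidermal genes none (2), with the desmosomal cadherin DSC3 highest at 4.83 ± 0.34.

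Of 47 G protein-coupled receptors 1 was above, 2.13% beside 10.6% of all genes (2.13% beside 22.7% without replicate 1): S1PR5, a receptor for sphingosine 1-phosphate, at 7.61, 6.62 and 6.54, which puts it among the 100 highest genes. Each of its arrays was higher than every array of the next receptor, CXCR4, a chemokine receptor, at 4.13, 4.48 and 4.05. CHRM3, a muscarinic receptor, was at 3.99 ± 0.28 and ADORA1, an adenosine receptor, at 3.95 ± 0.14. G protein subunits and adenylyl cyclases were above in 4 of 36, 11.1% (9 without replicate 1, 25%, beside 22.7%): GNAS, the stimulatory alpha subunit, at 5.98 ± 0.39, GNAQ, which drives phospholipase C, at 5.24 ± 0.36, GNB1 at 5.21 ± 0.18 and GNAI3 at 4.98 ± 0.22.

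None of 53 voltage-gated channel genes was above with or without replicate 1, beside 10.6% and 22.7% of all genes. The highest, KCNC4, was at 4.16 ± 0.31, followed by KCNF1 at 4.11 ± 0.68, KCNG2 at 3.99 ± 0.31 and KCNH2, the hERG channel, at 3.97 ± 0.20. Of 27 growth factor receptors none was above, and without replicate 1 there were 4, 14.8% beside 22.7%. TGFBR1 at 4.62 ± 0.50, BMPR2 at 4.53 ± 0.26, IGF1R at 4.30 ± 0.46 and ACVR2A at 3.93 ± 0.25 passed in replicates 2 and 3. The ERBB family was lower, with EGFR at 3.06 ± 0.37, ERBB2 at 3.66 ± 0.05, ERBB3 at 2.62 ± 0.14 and ERBB4 at 2.94 ± 0.06.

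None of 16 Toll-like receptors and adaptors was above with or without replicate 1, beside 10.6% and 22.7% of all genes. The surface receptors TLR1, TLR2 and TLR4 were at 1.92 ± 0.15, 2.31 ± 0.45 and 2.14 ± 0.19 and TLR3, which senses double-stranded RNA, at 2.29 ± 0.56, whereas the adaptors TICAM1 at 3.83 ± 0.13 and TRAF6 at 3.79 ± 0.53 were the highest members. Of 26 nucleic acid sensing and interferon genes 1 was above, 3.85% beside 10.6% of all genes: EIF2AK2, the kinase PKR, at 5.11, 5.64 and 5.57. Without replicate 1 there were 6, 23.1% beside 22.7%, and the list median of 3.56 was near the 3.42 of all genes. RIGI, a sensor of RNA, was at 4.72 ± 0.41, STAT3 at 4.57 ± 0.52 and IFNGR1 at 4.35 ± 0.16. The cells were transfected and sorted for GFP signal, and no untransfected array was used, so a baseline without transfection is not given by these values.

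Of 298 genes of zinc finger proteins named ZNF, most of them DNA-binding repressors, 22 were above, 7.38% beside 10.6% of all genes. Without replicate 1 there were 61, 20.5% beside 22.7%. ZNF711, on the list's top at 6.35, 6.85 and 7.10, was followed by ZNF146 at 6.68 ± 0.52, ZNF121 at 6.63 ± 0.52 and ZNF622 at 5.57 ± 0.17. The median of 3.42 was that of all genes.

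The silent families themselves were not uniform. Their use as a floor fixes about how many exceed it, so the 11 of 295 above are a description. Of these, 10 were keratin-associated or cornified envelope genes, proteins of hair and skin barrier: KRTAP6-3 was at 6.97, 6.07 and 5.94, KRTAP5-1 at 5.83 ± 0.15, LCE1F at 5.74 ± 0.72, KRTAP6-1 at 5.65 ± 0.24 and LCE5A at 5.44 ± 0.14. The last was OR2H2, an olfactory receptor, at 4.57, 4.35 and 4.57. The medians were 2.27 for olfactory receptors, 2.54 for taste and vomeronasal receptors, 3.05 for the skin genes and 2.09 for defensins. On olfactory receptors alone the floor was 3.87, 3.54 and 3.61.

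Long noncoding RNAs were low as a class. Of 316 such genes 7 were above, 2.22%, with a median of 2.81, and MALAT1 was the highest. Of 13733 protein-coding genes 10.9% were above.

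The arrays differed mainly in replicate 1. Across the 22011 rows, which are not independent replicates, Pearson's correlation was 0.969 between replicates 2 and 3, and 0.923 and 0.912 between replicate 1 and these. Of the 1507 genes above the level, replicate 1 was the lowest array for 1051, 69.7%, and of the silent reference rows it was the highest array for 65.2%. After quantile normalization these shares were 40.3% and 45.3%. The median SD of a row was 0.24. What set replicate 1 apart was not tested.

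Among genes above the level, the widest spread was in RAP1B, a small GTPase, at 4.55, 7.48 and 7.53, and in DYNLL1, a dynein light chain, at 4.81, 7.57 and 7.87. Both had replicate 1 far below the others, as did UFD1, TUBA1B, EI24, GOT2, MAP1LC3B and RPL18, whose SDs were 0.93 to 1.25. RPL35, a ribosomal protein, went otherwise, at 7.05, 3.94 and 6.31, and so did CHMP4B, another ESCRT-III subunit, at 7.32, 5.38 and 5.88. The steadiest were POLE4 at 5.05, 5.04 and 5.06, NDUFS6 of complex I at 6.69, 6.69 and 6.72, UTP11 at 5.74, 5.74 and 5.77, PTMS at 5.50, 5.54 and 5.52 and ATG3, of autophagy, at 5.10, 5.09 and 5.07.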

How the data were processed

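The 3 GFP arrays were read from the deposited series table; the 9 columns of the other groups were not used. The authors deposited log2 values, made with Partek and RMA on hg18 per the submitters' processing notes. Versions, probe sets and filters: not given in the sources used here. No further normalization was applied. Per the platform annotation, 14432 rows had 1 gene symbol, 2408 several and 5171 none; the Entrez identifiers of 14404 were in a current RefSeq table, and 0 symbols changed.

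Means and SDs over the 3 arrays were computed with Python 3.11.15, pandas 2.3.3 and numpy 2.4.6, and the calling steps were tested on simulated data. There was 1 group, so no test was run, and the SDs measure only the spread between these samples. The number of arrays limits the precision.

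Named genes are the 25 highest, up to 4 highest members of each of 45 lists, the 2 lowest of machinery lists, the first 4 entries of lineage, host and transformed-state lists, the 10 genes above the level with the largest SD and the 5 with the smallest, up to 5 silent or other-tissue genes above the level, and MED12; other names were added after their values were seen. Not every gene the rule covers is printed. Members and lists were chosen with earlier results of these data known. Promoter windows, matched by gene identifier, came from RefSeq (GRCh38.p14), at the first listed start; no coordinate of the array's build was converted. Alternatives were other percentiles, 2 of 3 arrays, olfactory receptors only, quantile normalization, each array left out and the median over the 3 arrays. Further ones were every row of a gene counted, gene percentiles among all rows and, chosen after seeing the data, the last listed start. Among all rows FN1 moved from the 99.6 to the 96.6 percentile and NEFM from 95.8 to 90.7, while MED12, from 85.2 to 80.0, kept within its limit.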

Additional observations from a re-analysis of the deposited data

How the results depend on the processing

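No paired analysis was possible because 1 group was described and the results come from no test. The number of genes kept among the 25 highest and the median SD stayed within their limits in every alternative run for them, but the counts above the silent-family level depended on the floor. The 1519 rows above became 3999 with the 90th percentile, 236 with the 99th, 3361 with 2 of 3 arrays and 3723 with olfactory receptors only, and 1530 to 3262 with 1 array left out, where 3262 is without GFP replicate 1. The 208 machinery genes became 318, 76 and 320 with the 90th and 99th percentile and 2 of 3 arrays, and 209 to 315 with 1 array left out. The 4 transformed-state genes became 13, 1, 13 and, with olfactory receptors only, 13, and 4 to 12 with 1 array left out. In the same order, the 16 lineage genes became 52, 2, 35 and 43, and 16 to 33; the 3 other-tissue genes 12, 0, 6 and 8, and 3 to 6; and the 28 host cell genes 107, 4, 83 and 97, and 28 to 81. The 11 silent reference genes became 17 with the 90th percentile, 2 with the 99th and 17 with olfactory receptors only. The upper end of these ranges is without replicate 1, and fewer arrays or a lower floor make the rule easier by construction. At the last listed start of a gene, the GC box stood in 27.3% of promoters of the lowest bin and 67.9% of the highest, and the TATA box in 22.6% and 7.44%. Of the values of single lists and genes, 321 kept within their limits and 138 moved. The 321 include the list counts after quantile normalization and with every row of a gene counted. These could hardly move by construction, as quantile normalization keeps the order of rows within an array and few genes had several rows. The 321 are therefore no measure of how stable the counts are. No detection call or signal over background is given with the values, so low levels cannot be told from background.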
